A study of Auxenochlorella pyrenoidosa with 8 samples.

Results

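A set of 119 genes of the green alga Auxenochlorella pyrenoidosa had much lower means 4 h after the CO2 supply was cut. At 24 h the mean of each gene was still below its 0 h mean, but no member passed a test at that time. The set was chosen by value from the 10283 genes of the deposited table, which gives RPKM (reads scaled to gene length and to the size of the library). A member had a mean of at least 5 RPKM at 0 h, a log2 ratio of at most -1.5 at 4 h, and a log2 ratio at 24 h at or below 0.5 times that at 4 h. Each ratio compares the mean of a time, plus 1 RPKM, with the mean at 0 h, plus 1 RPKM. The floor at 0 h was met by 7388 genes, so members were 1.61% of them. The values at 0, 4 and 24 h therefore chose the members and are given as a description. Of the times, 1 h alone took no part in the choice.

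Strain FACHB-9 was grown in light on 5% CO2 for 5 days and then bubbled with plain air. Every group shares this culture history: 0 h (before air, n = 2), and 1 h, 4 h and 24 h in air (n = 2 each). The design text names independent biological experiments run in a single batch. No sample stayed on 5% CO2 past 0 h, so the effects of air, culture age and handling cannot be told apart.

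Green algae fix CO2 with Rubisco, an enzyme that also reacts with oxygen when CO2 is scarce. In air many of them switch on a carbon-concentrating mechanism, which pumps bicarbonate toward Rubisco and converts it back to CO2 with carbonic anhydrases. The opposite class, transcripts abundant on high CO2 and low in air, is also known: in Chlamydomonas reinhardtii it includes a periplasmic carbonic anhydrase isoform. The files pair the numbers of the genes studied here with no name, product or sequence, so no member could be given a role, none of 9 pathway lists could be measured, and the organism could not be checked against marker genes. Members are given by gene number and scaffold position. No label or header names the assembly.

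Between 16706278 and 35463138 reads per library lay behind the values, and the reads of each member could be recovered as whole numbers. The median member had 1432 and 1930 reads at 0 h, and 308 and 585 after 4 h. The lowest count of any member was 5 reads, at 4 h, and 4 members in 4 h library 1 and 1 member in 4 h library 2 rested on fewer than 10 reads. The libraries did not all group by label. Across all genes, on the log2 scale, 1 h library 2 correlated at r = 0.994 with 24 h library 1 and at 0.967 with 1 h library 1, while r was 0.951 within 24 h and 0.995 within 4 h. Likewise, 1 h library 1 correlated at 0.985 with 24 h library 2 and at 0.986 with 0 h library 2, above the 0.977 within 0 h. These r values are over genes, which are not independent replicates. The 0 h libraries also differed in many members. Times are those of the labels. Whether any 1 h and 24 h labels were exchanged was not tested, and an exchange would change what every 1 h and 24 h value stands for. The main medians at 1 h and 24 h are therefore given for each library as well.

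**Figure D1:**
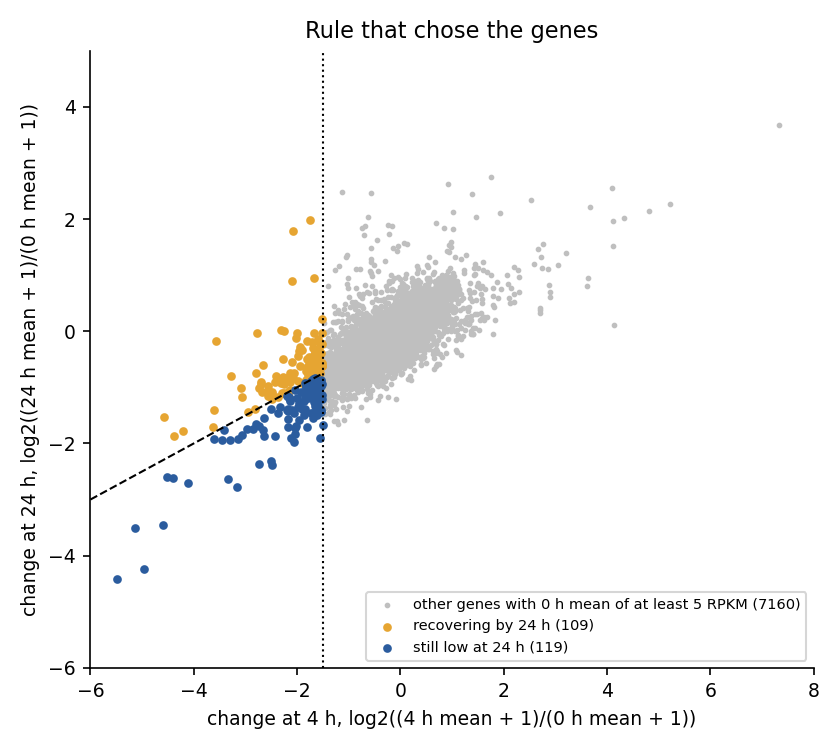
Change at 4 h (x) and at 24 h (y) against 0 h for genes with a 0 h mean of at least 5 RPKM, both as log2 ratios of means plus 1 RPKM. The 119 members (blue) lie left of the dotted line at -1.5 and below the dashed line, which is at 0.5 times the change at 4 h; the 109 recovering genes (orange) lie above it.

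The cut was drawn through a continuum of values, as the plot of the rule shows. Just inside the limit at 4 h were g7425 and g5020, with log2 ratios of -1.5043 and -1.5120, and just outside it were g7968 and g7608, at -1.4999 and -1.4979. At 24 h, g5683 and g3904 held 0.502 and 0.503 of their log2 change at 4 h and were kept. g7361 and g6190, at 0.497 and 0.494, were left out. Another 109 genes met the floor and the limit at 4 h but not that at 24 h, so members made up 52.2% of the 228 genes that met the first pair of limits.

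Membership moved with single libraries. The rule found 263 genes, 98 of them members, when 0 h library 2 was left out, and 82 genes, 67 of them members, when 0 h library 1 was left out. Leaving out a 24 h library gave 127 genes without library 1 (91 members) and 143 without library 2 (107 members). Without a 4 h library, 150 and 110 genes met it. Scaling the libraries by a trimmed mean of log ratios, which removed a lower median of all genes at 4 h, left 73 genes, and a pseudocount of 5 RPKM left 67. A core of 29 members met the rule in each of the 6 leave-outs.

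The members ran from modest to abundant transcripts on 5% CO2. Their 0 h means reached from 5.51 to 3269 RPKM with a median of 30.7, beside 20.6 over all genes that met the floor. At 0 h, 12 members were under 10 RPKM and 25 were at 100 RPKM or more. Together they took 2.95% and 2.49% of the reads at 0 h. In air that share was 1.38% and 0.918% after 1 h, 0.734% and 0.612% after 4 h, and 0.929% and 1.07% after 24 h. In such bulk RNA, fewer cells that carry a transcript and less of it per cell cannot be told apart.

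**Figure D2:**
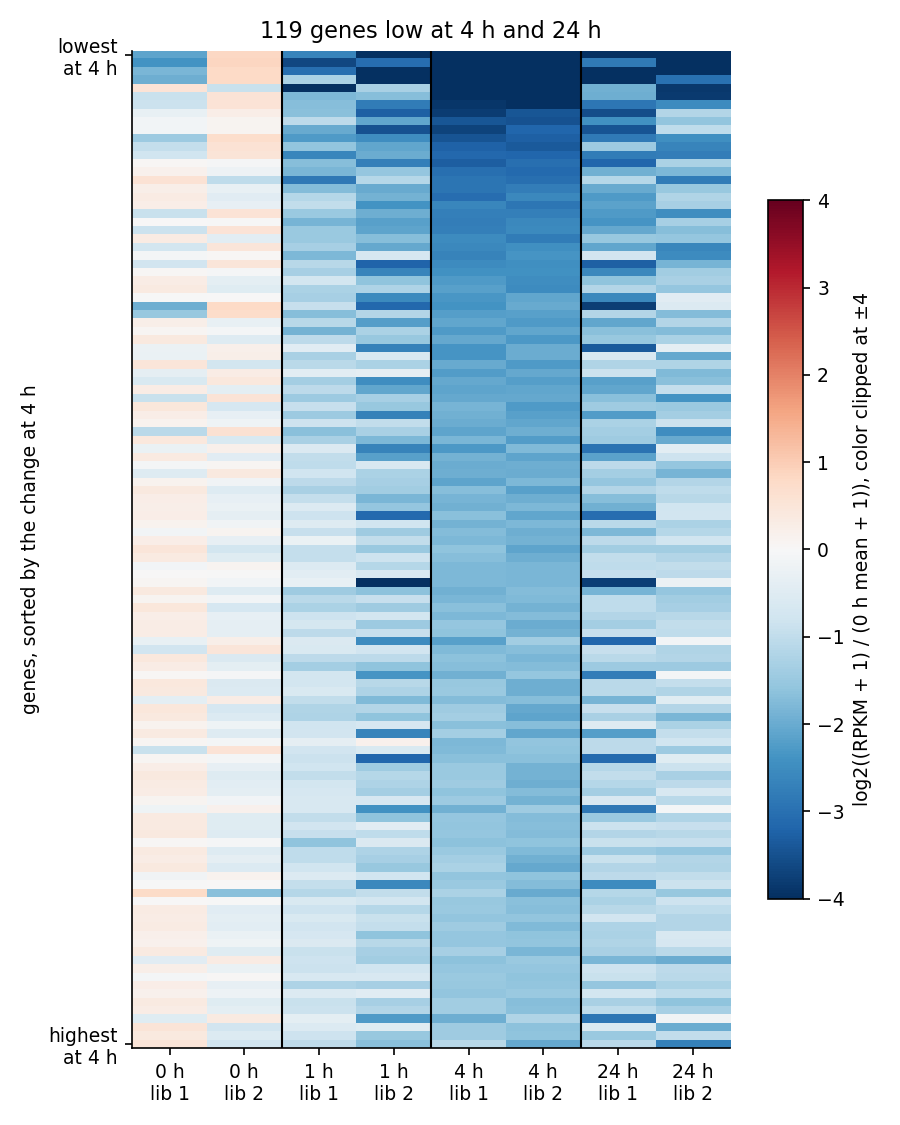
Heat map of the 119 members (lines, sorted by the change at 4 h) in the 8 libraries (columns), as log2((RPKM + 1)/(0 h mean + 1)). The pair at 4 h is evenly blue, whereas in part of the genes 1 h library 2 and 24 h library 1 are dark and 1 h library 1 and 24 h library 2 are pale.

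The median log2 ratio of the members was -1.84 at 4 h and -1.33 at 24 h, beside -0.20 and -0.14 over all 9326 genes tested. Most members were close to the limit: 71 had a ratio above -2 at 4 h, 33 lay from there down to -3, and 15 were at -3 or lower. In single libraries the members' medians were -1.83 and -1.96 at 4 h, and -1.43 and -1.21 in 24 h libraries 1 and 2. Relative to the median of all genes, the members stood at -1.64 at 4 h and -1.18 at 24 h. After trimmed-mean scaling, which brought the median of all genes at 4 h to 0.00, the members' own medians were -1.63 and -1.15.

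Both 4 h libraries lay below both 0 h libraries in 118 of the 119 members, a pattern seen in 48.9% of all genes tested. At 24 h the same held for 112 members, against 33.9% of all genes. These counts follow from the choice of members and are not evidence for it. The limma fit to log2(RPKM + 1) of all libraries took 1 spread per gene over all groups. The members' spread was not alike, with a median SD on the log2 scale of 0.503 at 0 h and 0.139 at 4 h. With that shared spread, 93 members were called lower at 4 h than at 0 h (Benjamini-Hochberg adjusted p under 0.05), where 9.97% of all genes were. This count was 42 without 0 h library 1, and 5 and 7 without 4 h library 1 or 2, where the lone 4 h library is assumed to vary like the other groups. Of the 32 members whose 0 h libraries were over 2-fold apart, 21 were called, and of the 87 others 72 were. Voom on the recovered reads called 72 members lower, among 409 of the 9326 genes tested.

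At 24 h the label "still low" rests on levels and not on calls. No member passed limma at 24 h against 0 h (0% of all genes were called; smallest adjusted p of a member 0.111), nor did any pass voom. Without adjustment, at p under 0.05, limma had 102 members lower at 24 h and voom 93. At that level 14.3% of all genes were lower in limma, and 678 of the 9326 genes tested in voom.

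The lowest ratios at 4 h belonged to genes whose 0 h libraries disagreed. g2865 (scaffold00366, 493722 to 494786, plus strand; 2 coding exons, 684 bp coding) was at 80.6 and 629 RPKM at 0 h, 55.9 and 18.5 after 1 h, 7.17 and 6.71 after 4 h, and 16.1 and 15.3 after 24 h. All 6 libraries in air were below both at 0 h. Its mean was 51.1-fold lower at 4 h and 22.5-fold lower at 24 h, but the log2 ratio at 4 h went from -5.49 to -3.36 when 0 h library 2 was left out, and that at 24 h from -4.41 to -2.29.

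g6488 (scaffold00902, 1510124 to 1512507, minus strand; 6 coding exons) held 8.06 and 85.9 RPKM at 0 h and 0.363 and 0.379 after 4 h, the latter from 16 and 32 reads. Its 1 h libraries stood at 2.81 and 4.83 RPKM and its 24 h libraries at 5.75 and 0.693, so one 24 h library came close to the lower 0 h library and the other to the level at 4 h. With 0 h library 2 left out, its log2 ratio at 4 h went from -5.13 to -2.72 and that at 24 h from -3.51 to -1.10.

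g897 (scaffold00066, 628977 to 636580, minus strand; 19 coding exons) shared the lowest places at 24 h and 1 h. It was at 29.9 and 188 RPKM at 0 h, 12.5 and 5.03 after 1 h, 2.48 and 2.53 after 4 h, and 5.67 and 4.00 after 24 h. Every library in air was below both at 0 h, with a mean 43.5-fold lower at 4 h. g897 and g2865 belonged to the core of 29, and g6488 did not.

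Disagreement at 0 h ran through the set. In 20 members 0 h library 2 was over 2-fold above library 1, and in 12 the reverse was true, together 32 of 119, beside 218 of the 7388 genes that met the floor. Of the 15 members at -3 or lower at 4 h, 9 were among those 20. The 0 h mean was part of the rule, so this spread is described and not tested. The median SD on the log2 scale was 0.503 at 0 h in the members and 0.207 over the genes that met the floor (n = 2 per group). At 4 h these values were 0.139 and 0.0815.

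By 0 h mean, g1804 and g8483 were the most abundant members. g1804 (scaffold00168, 1227 to 2344, minus strand; 3 coding exons, 261 bp coding) stood at 4183 and 2354 RPKM at 0 h, 1644 and 1066 after 1 h, 1108 and 982 after 4 h, and 1170 and 1411 after 24 h. Its predicted model lacked a start codon, a stop codon or both, so its coding length may be partial. Its mean at 4 h was 32.0% of that at 0 h and its mean at 24 h 39.5%. g8483 (scaffold01168, 455761 to 457894, minus strand) held 1084 and 563 RPKM at 0 h, 479 and 290 after 1 h, 342 and 199 after 4 h, and 368 and 356 after 24 h. In both genes the air libraries lay below the pair at 0 h, without overlap. RPKM here is per kilobase of the full gene, introns included, so a gene with long introns reads low beside a compact one.

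At 24 h most members stood part of the way back. The median log2 ratio of the 24 h mean to the 4 h mean was 0.66, beside 0.06 over all genes. In 78 members both 24 h libraries were above both 4 h libraries, against 29.2% of all genes. limma called 0 members between 24 h and 4 h (0.322% of all genes were called higher and 0.375% lower), with 35 members higher at an unadjusted p under 0.05 (8.24% of all genes), and voom called 0, with 29 at that level. In voom 620 of the 9326 genes tested were higher at that level. The rule used both times, so these values are a description.

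The largest returns were those of g7231 and g3668, and in both 1 of the 24 h libraries was far above the other. g7231 (scaffold01003, 1385427 to 1387230, minus strand) was at 39.3 and 13.7 RPKM at 0 h, 0.752 and 10.2 after 1 h, 0.14999 and 0.266 after 4 h, and 6.22 and 0.915 after 24 h. At 4 h only 5 and 17 reads lay behind it. g3668 (scaffold00479, 94357 to 101080, minus strand; 17 coding exons) held 22.7 and 64.0 RPKM at 0 h, 11.8 and 12.6 after 1 h, 0.981 and 1.20 after 4 h, and 10.4 and 2.09 after 24 h.

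In 2 members the mean at 24 h was below that at 4 h. g7406 (scaffold01012, 643197 to 644630, minus strand; 4 coding exons) went from 18.8 and 33.0 RPKM at 0 h to 14.1 and 9.18 after 1 h, 7.70 and 8.64 after 4 h and 6.64 and 5.79 after 24 h. It was the single member with both 24 h libraries below both 4 h libraries. g7425 (scaffold01012, 754278 to 758432, plus strand; 7 coding exons) held 143 and 57.1 RPKM at 0 h, 49.5 and 31.0 after 1 h, 45.7 and 23.5 after 4 h, and 46.9 and 14.5 after 24 h. Its air groups overlapped with each other.

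**Figure D3:**
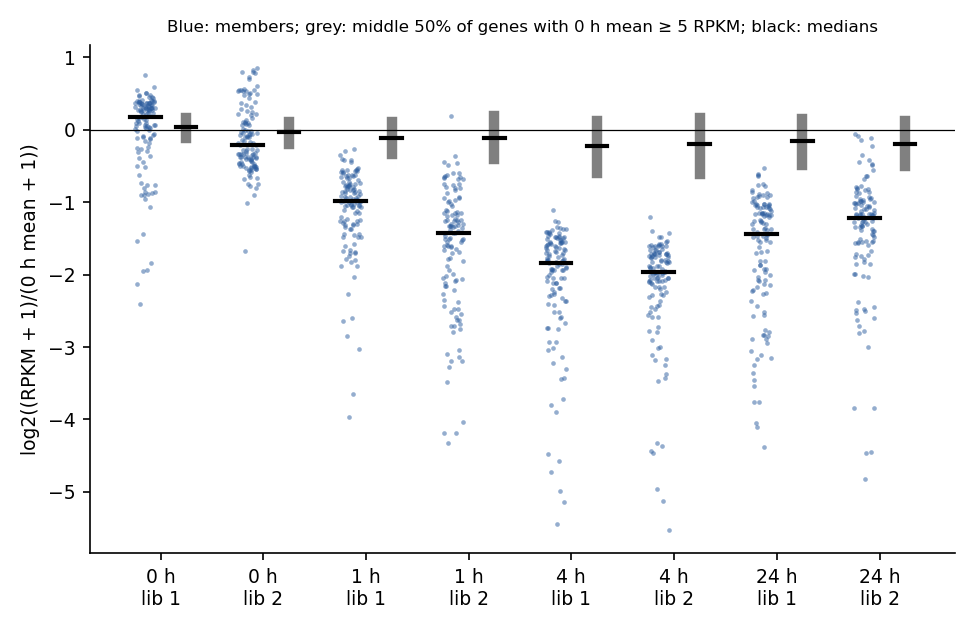
Level of each member (blue points) in each library as log2((RPKM + 1)/(0 h mean + 1)), with the middle 50% of all genes that met the floor as grey bars and medians as black lines. The members' medians at 1 h, -0.98 and -1.43, lie between those at 0 h and at 4 h.

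At 1 h, the time outside the rule, the members already stood well below 0 h. Their median log2 ratio was -1.20, beside -0.08 over all genes tested, and -0.98 and -1.43 in libraries 1 and 2. The 0 h mean that enters this ratio was part of the choice, so the ratio is not independent of the rule. The 24 h libraries were part of the choice too, and the 1 h libraries resembled them across labels. Over all genes 1 h library 2 correlated at 0.994 with 24 h library 1, and 1 h library 1 at 0.985 with 24 h library 2. The values at 1 h are therefore a description as well. When 1 h is set against each 0 h library alone, the median was -1.30 against library 1 and -0.94 against library 2. Both 1 h libraries lay below both 0 h libraries in 107 members, against 28.1% of all genes tested. In the median member the log2 change at 1 h was 0.623 of that at 4 h, beside 0.384 in the median recovering gene. Over all genes tested this value was 0.512. There the changes at 4 h were small and of both signs (quartiles -0.56 and 0.13), so it is not a like measure.

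No member passed the test at 1 h. limma called 0 of 119 lower than at 0 h (0% of all genes; smallest adjusted p 0.114), as did voom. Without adjustment, at p under 0.05, 89 members were lower in limma and 84 in voom, and none was higher. At that level 8.07% of all genes were lower and 2.14% higher in limma. In voom 504 of the 9326 genes tested were lower and 334 higher.

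Most members stood lower at 4 h than at 1 h. Both 1 h libraries lay above both 4 h libraries in 92 members, against 37.5% of all genes tested. limma called 3 members lower at 4 h than at 1 h, where 0.236% of all genes were. These were g9279 and g3751, and g58, which was added after its values were seen. Voom called 0, with 36 members lower at an unadjusted p under 0.05 (45 in limma, where 10.1% of all genes were). In voom 635 of the 9326 genes tested were lower at that level. The low 4 h values were part of the choice of members.

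g9279 (scaffold01211, 1100773 to 1102547, plus strand; 7 coding exons) was still near its 0 h level at 1 h. It was at 9.92 and 8.83 RPKM at 0 h, 7.15 and 10.8 after 1 h, 1.98 and 2.46 after 4 h, and 4.05 and 4.91 after 24 h. The groups at 0 h and 1 h overlapped and both lay above 4 h and 24 h. Its ratio at 1 h was -0.06 as deposited, and 0.03 and 0.05 after trimmed-mean scaling and quantile normalization. From 1 h to 4 h the fitted log2 change was -1.61 (SE 0.22, limma adjusted p = 0.040).

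g3751 (scaffold00514, 251807 to 252771, plus strand; 3 coding exons, 207 bp coding) was already lower at 1 h, with 32.9 and 24.7 RPKM at 0 h, 7.38 and 9.18 after 1 h, and 2.69 and 2.46 after 4 h. At 24 h it stood at 6.85 and 7.65 RPKM, overlapping its 1 h values and below both at 0 h. Its fitted log2 change from 1 h to 4 h was -1.37 (SE 0.20, limma adjusted p = 0.045).

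g58 (scaffold00012, 73337 to 74010, minus strand; 2 coding exons, 291 bp coding) had the closest replicates of the 3, at 98.37 and 95.04 RPKM at 0 h, 72.4 and 61.4 after 1 h, 26.9 and 26.5 after 4 h, and 50.1 and 46.4 after 24 h. None of its groups overlapped. The fitted log2 change from 1 h to 4 h was -1.29 (SE 0.17, limma adjusted p = 0.033). All 3 calls were lost in a fit of these groups alone, with the replicate block, when any 0 h, 1 h or 4 h library was left out, and in voom, whereas 7 members were called without either 24 h library. Adjusted p over the alternatives reached 0.450 for g9279 and g58 and 0.462 for g3751.

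The members' median ratio was -1.33 at 24 h and -1.20 at 1 h. The library medians overlapped, at -1.43 and -1.21 for 24 h and -0.98 and -1.43 for 1 h, so the order of these times depended on the library read. limma called 0 members between these times (0% of all genes; 5 members lower at 24 h at an unadjusted p under 0.05, where 0.558% of all genes were), and voom called 0, with 4 at that level. The fitted log2 difference of 24 h and 1 h had a median of -0.15 over members, with a median SE of 0.36, so a difference of that size was not detectable with these libraries.

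**Figure D4:**
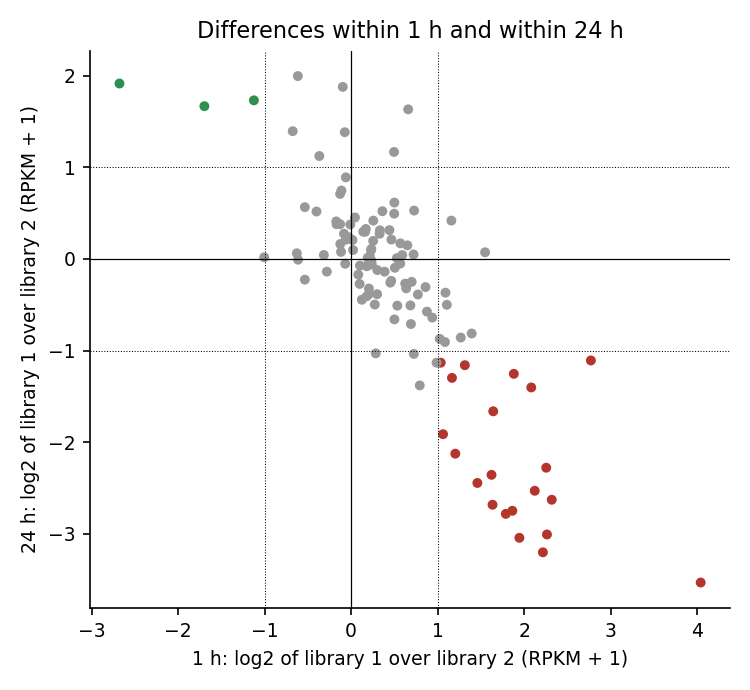
Difference between library 1 and library 2 within 24 h (y) against that within 1 h (x), as log2 of RPKM plus 1, for the 119 members; dotted lines mark 2-fold. In 21 members (red) 1 h library 1 and 24 h library 2 were the high ones, in 3 (green) the low ones, and no member was over 2-fold apart at both times in the same direction.

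Averages at 1 h and 24 h hid opposite libraries in part of the set. The 1 h or the 24 h libraries, or both, were over 2-fold apart in 44 members. In 21 of them 1 h library 1 exceeded library 2 and 24 h library 2 exceeded library 1, each by over 2-fold. In 3 members both differences ran the other way, and in 0 members did they run the same way. Among the 7388 genes that met the floor these counts were 171, 98 and 1, and among the 109 recovering genes they were 16, 10 and 0. Taken in either direction, opposite libraries were found in 24 of the 119 members, 26 of the 109 recovering genes and 269 of the 7388 genes. The members therefore shared them with the recovering genes, while they were a much smaller share of all genes that met the floor. The direction was more one-sided in the members than in the recovering genes, which was not tested.

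In the 21 members the median log2 ratio to 0 h was -0.92 in 1 h library 1 and -0.77 in 24 h library 2, but -2.69 in 1 h library 2 and -3.05 in 24 h library 1. At 4 h it was -2.18 and -2.08, so 4 h lay between the extremes. In 16 of the 21, 1 h library 2 and 24 h library 1 were both below both 4 h libraries. This pattern was found in 18 of the 119 members, a smaller share than the 23.7% of all genes tested, and low 4 h values chose the members. All 21 met the limit at 24 h in library 1 taken alone and 5 did in library 2. The 21 were sorted by 1 h library 2 and 24 h library 1 being the low ones, so these medians and counts follow in part from the sorting. limma called 4 of the 21 at 4 h, beside 72 of the 75 members whose 1 h and 24 h libraries were both within 2-fold. It takes 1 spread per gene over all groups, so sorting members by their spread within 1 h and 24 h bears directly on these counts. The counts do not measure the size of the change at 4 h, where the library medians of the 75 were -1.67 and -1.89.

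The most abundant of the 21, g8972 (scaffold01204, 1403842 to 1405766, plus strand; chosen after its values were seen), was at 423 and 370 RPKM at 0 h. Its 1 h libraries held 324 and 18.8 RPKM, its 4 h libraries 113 and 111, and its 24 h libraries 28.4 and 339. Thus 1 h library 1 and 24 h library 2 lay just under the 0 h level and the other pair below 4 h. For g8972, "still low at 24 h" describes 24 h library 1 and not library 2.

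Over the whole set, 79 members met the limit at 24 h in each 24 h library taken alone, 107 in library 1 and 91 in library 2. Among the 75 members with agreeing libraries, the median log2 ratio was -1.07 at 1 h, -1.74 at 4 h and -1.18 at 24 h. The 24 h libraries of these 75 had medians of -1.18 and -1.21.

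The core of 29 showed the same course with larger values. Its median log2 ratio was -1.58 at 1 h, -2.37 at 4 h and -1.71 at 24 h, and its 0 h means reached from 5.69 to 355 RPKM. In single libraries the core stood at -1.31 and -1.82 at 1 h and at -1.92 and -1.51 at 24 h. It held 20 of the 75 members with agreeing 1 h and 24 h libraries and 3 of the 21 with opposite ones. Of the core, 27 were called in limma at 4 h. The core was taken from these same values, so none of this is a test of it.

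At 1 h the members' values were lower than those of the 109 genes that met the same limit at 4 h but recovered. The medians at 4 h were -1.84 in the members and -1.94 in the recovering genes, and at 1 h they were -1.20 and -0.77. In 1 h library 1 the medians were -0.98 and -0.78, and in library 2 they were -1.43 and -0.83. Of the members, 91 of 119 already had at 1 h a log2 change of at least 0.5 times that at 4 h, against 24 of 109 recovering genes. In 1 h library 1 taken alone these counts were 60 and 33, and in library 2 they were 95 and 39. The 1 h values did not choose either set. The 0 h mean, however, entered both the limit at 24 h that parted the sets and the ratios at 1 h. The 0 h libraries were over 2-fold apart in 32 of the 119 members and in 12 of the 109 recovering genes. The 1 h and 24 h libraries also resembled each other across labels. The difference at 1 h between these sets of genes was not tested.

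In structure the members were ordinary, somewhat short genes. Their median model had 6 coding exons (range 1 to 27), 783 bp of coding sequence and a span of 2242 bp. The genes that met the floor had medians of 6 exons, 914.5 bp and 2640 bp. The spliced transcript made up 44.8% of the span in the median member and 44.7% in those genes. A single coding exon was predicted for 4 members (3.36%, against 1.71%), and more than 1 transcript for 1 member (0.840%, against 1.31%). Both a start and a stop codon were present in 102 members (85.7%, against 84.3%). The recovering genes were alike, with medians of 6 exons, 758 bp and 2164 bp. No test over genes was made of these values.

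Members were spread over 64 scaffolds, with at most 9 on one, scaffold01012, where 414 genes met the floor (2.17%). Even so, 10 members sat in 5 pairs of directly neighbouring gene models. Of the 153 neighbours of members that met the floor, 10 were members (6.54%), against 1.61% of all genes that met it. Neighbours were counted from each member, so these 10 are the 5 pairs seen from both sides. The share rests on those 5 pairs and was not tested. Of the pairs, 3 stood head to head, 1 tail to tail and 1 on the same strand, with gaps from 135 to 7026 bp. No label or header says whether reads were counted by strand, so reads of overlapping or antisense transcripts cannot be told apart.

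**Figure D5:**
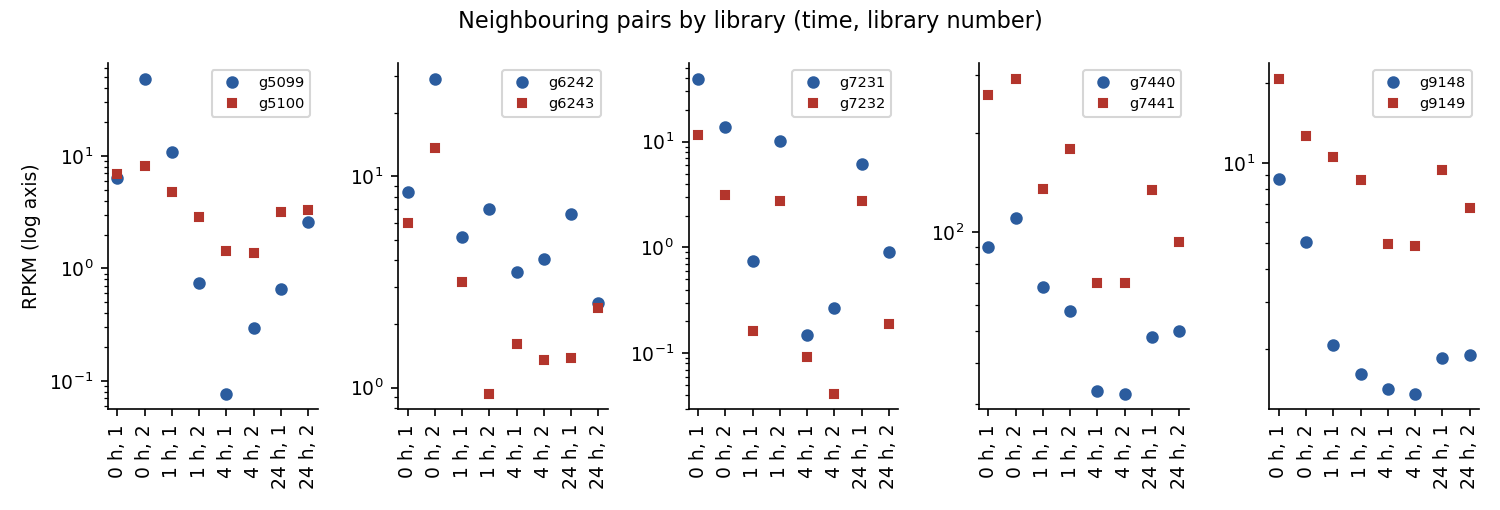
RPKM (log axis) of both genes of each of the 5 neighbouring pairs in the 8 libraries. In the pair g7231 and g7232 both genes are high in the same libraries, including 1 h library 2 and 24 h library 1, whereas in g5099 and g5100 the sizes of the changes differ.

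The closest pair, 135 bp apart and head to head, was g7231, described above, and g7232 (scaffold01003, 1387366 to 1391440, plus strand; 12 coding exons). g7232 was at 11.5 and 3.13 RPKM at 0 h, 0.161 and 2.76 after 1 h, 0.0929 and 0.0415 after 4 h, and 2.78 and 0.190 after 24 h. As in g7231, 0 h library 1, 1 h library 2 and 24 h library 1 were the higher ones of their times, and both genes were among the 3 members with the rarer direction of opposite libraries. At 4 h g7232 had 7 and 6 reads.

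The head-to-head pair g7440 and g7441 (scaffold01012, 821268 to 823692 and 823998 to 825692) lay 305 bp apart. g7440 was at 90.4 and 111 RPKM at 0 h, 67.9 and 57.4 after 1 h, 32.9 and 32.3 after 4 h, and 47.9 and 50.05 after 24 h. g7441 was at 262 and 293 RPKM at 0 h, 136 and 179 after 1 h, 70.05 and 70.15 after 4 h, and 134 and 93.4 after 24 h. In both genes all air libraries lay below both at 0 h. Their log2 ratios at 4 h were -1.60 and -1.97.

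The third head-to-head pair, g9148 and g9149 (scaffold01211, 342558 to 343781 and 344107 to 345251), was 325 bp apart, with ratios of -1.72 and -1.58 at 4 h and -1.45 and -0.96 at 24 h. g6242 and g6243 (scaffold00902, 96906 to 101787 and 102156 to 103263) followed each other on the plus strand, 368 bp apart, and both had the higher value in 0 h library 2. Within 1 h and within 24 h they ran opposite ways. g6242 was higher in 1 h library 2 and 24 h library 1, and g6243 in 1 h library 1 and 24 h library 2. The ratios of g6242 and g6243 were -2.04 and -2.12 at 4 h and -1.82 and -1.90 at 24 h.

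The widest pair, g5099 and g5100 (scaffold00704, 265918 to 270832 and 277859 to 286442), stood tail to tail 7026 bp apart and differed in size of change. g5099 was at 6.42 and 48.5 RPKM at 0 h, 10.9 and 0.744 after 1 h, 0.0770 and 0.293 after 4 h, and 0.656 and 2.57 after 24 h, a log2 ratio of -4.59. g5100 was at 6.88 and 8.08 RPKM at 0 h, 4.74 and 2.88 after 1 h, 1.42 and 1.37 after 4 h, and 3.17 and 3.32 after 24 h, with a 4 h ratio of -1.82. Both belonged to the core of 29, but limma called g5100 and not g5099 lower at 4 h than at 0 h. In g5099, 1 h library 1 was above 0 h library 1.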

How the data were processed

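RNA from 8 samples was sequenced. The authors deposited RPKM per gene and library, per the file headers; TopHat and HTSeq are named in the submitters' processing notes, without versions. The deposited models come from AUGUSTUS, with a score per feature that was not used here. RPKM times end minus start of the gene gave whole reads within 0.01 reads for 100% of values, so the authors' RPKM refer to the full span. limma 3.58.1 (R 4.3.3) was fitted to log2(RPKM + 1) of all libraries with trend and robust moderation (residual degrees of freedom 4, prior 3.63 in the median gene). The test covered 9326 genes averaging 1 RPKM or more and left out 957, and all 119 members passed this filter. Tests were two-sided with Benjamini-Hochberg adjustment. P-values set a difference of group means against the spread between these samples, taken as 1 spread per gene over all groups. Members and lists were chosen with earlier results of these data known. Named genes were the extremes of each comparison, those at the limits, called members and neighbouring pairs. The code was tested on simulated data. For limma these had the same spread setting in every group, so they do not show how it behaves at the members' unequal spread. Alternatives changed the pseudocount, filter, scaling, libraries fitted, replicate block, test and each library.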

Additional observations from a re-analysis of the deposited data

Results flagged for a closer look

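For 3 members the change from 0 h differed between 4 h and 1 h, by limma's test of that difference (adjusted p under 0.05). Low 4 h values were part of the choice of members, so this test is not independent of the rule and supports nothing about the set. The fitted log2 differences of 4 h and 1 h were -1.61 for g9279, -1.37 for g3751 and -1.29 for g58. Each was lower in both 4 h libraries than in both 1 h libraries. g9279 was not called in 12 of 17 fits, g3751 in 12 of 17 and g58 in 9 of 17.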

How the results depend on the processing

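The rule found 67 genes with a pseudocount of 5 RPKM, 73 after trimmed-mean scaling and between 82 and 263 with each 0 h, 4 h or 24 h library left out. With the other settings (a pseudocount of 0.1, floors of 2 and 10 RPKM, quantile normalization) it found 84 to 143. Members called lower at 4 h than at 0 h numbered between 5 and 98 over the leave-outs and 72 to 112 over the other settings. At 4 h against 1 h, members called numbered 1 with a pseudocount of 5, 1 without a filter and 1 after quantile normalization; there were 0 with only the groups compared, 0 with the replicate block and 0 in voom, and between 0 and 7 over the leave-outs, the 7 without either 24 h library. At 24 h against 4 h, 1 member was called with a pseudocount of 0.1. The counts for 1 h and 24 h against 0 h and for 24 h against 1 h were 0 in every fit. The median change at 1 h ranged from -0.98 to -1.27 over pseudocounts and scalings and from -0.94 to -1.43 over leave-outs. For g9279 the ratio at 1 h was 0.028 after trimmed-mean scaling and 0.050 after quantile normalization, and it lay between -0.35 and 0.19 over leave-outs.

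The library numbers were not shown to pair samples. Deviations of same-numbered libraries correlated at -0.73 between 1 h and 24 h and between 0.01 and 0.35 elsewhere. The replicate block took the members called lower at 4 h from 93 to 79 and those at 4 h against 1 h from 3 to 0. A crossed block of the 1 h and 24 h libraries, added after the data had been seen, called 0 members between these times.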

Other observations

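Within a member, the highest of the 8 libraries was 0 h library 1 in 77 members and 0 h library 2 in 41. It was 1 h library 2 in 1, g9279. The lowest was 4 h library 1 in 32 members, 4 h library 2 in 61, 1 h library 2 in 10, 24 h library 1 in 10 and 24 h library 2 in 6. The 4 h libraries were the lowest pair of the 8 in 74 members, and the 0 h libraries the highest pair in 105.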
